A study of Drosophila melanogaster with 3 samples.

Results

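The peaks described here are the sites that 1 of 3 replicate ChIP-seq libraries ranked high and the other two did not. Of the 3688 peaks of highest signal value in the dm6 list of replicate 3, the 1058 members (28.7%) overlapped, by 1 bp or more, none of the 3688 highest peaks of replicate 1 or of replicate 2. They were chosen by the signal values and ranks of the same libraries, so their rarity in the other top lists is the rule and not a finding, and no test is attached to it. The 3 whole dm6 lists held 90000 records, 30000 for each replicate. All 3 replicates form 1 group: entire embryos of Drosophila melanogaster, males and females pooled, aged 8 to 24 h, from a stable transgenic line that carries CG4328 with green fluorescent protein (GFP) at its C-terminus, precipitated with an antibody against GFP after sonication to fragments of 200 to 800 bp. There was no second genotype, stage or treatment. The labels do not say which promoter drives the transgene. The control alignment that the text notes name, the same one for every replicate, was not analysed here, and a measured peak cannot tell strong binding in few cells of an embryo from weak binding in many.

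CG4328 encodes a LIM-homeodomain protein. Factors of this family bind DNA through a homeodomain, which in many members recognises cores of the letters TAATTA, and bind partner proteins through paired LIM zinc fingers, and in flies several of them specify neuron and muscle identities. A ChIP-seq peak marks where sequenced fragments pile up, and its summit is the position of the highest pile. A relaxed list deliberately runs from strong peaks down into background, so that the agreement between replicates can be measured, and an optimal list, set by the irreproducible discovery rate (IDR), keeps the part of the pooled ranking that the replicates share.

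The following sequences, 201 bp centred on the summit and read 5′ to 3′ on the plus strand of the RefSeq release 6 genome (dm6), are shown because they are where the set begins: the 8 members of highest signal value whose window holds no annotated untranslated region, with 1 chromosome arm left out. Capitals mark TAATTA and TATCGATA, the site of the promoter factor DREF, and a sequence without capitals holds neither.
Hph (chr3R:5256786-5256986): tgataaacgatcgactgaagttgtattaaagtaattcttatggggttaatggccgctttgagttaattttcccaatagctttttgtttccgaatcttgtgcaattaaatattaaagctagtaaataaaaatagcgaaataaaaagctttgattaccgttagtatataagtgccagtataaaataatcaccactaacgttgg
Nab2 (chr3R:24318584-24318784): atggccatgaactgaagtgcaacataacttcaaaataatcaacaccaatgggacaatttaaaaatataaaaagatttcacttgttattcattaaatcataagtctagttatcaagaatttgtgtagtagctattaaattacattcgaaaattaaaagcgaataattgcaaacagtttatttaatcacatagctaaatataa
Atg18b (chr2L:21219743-21219943): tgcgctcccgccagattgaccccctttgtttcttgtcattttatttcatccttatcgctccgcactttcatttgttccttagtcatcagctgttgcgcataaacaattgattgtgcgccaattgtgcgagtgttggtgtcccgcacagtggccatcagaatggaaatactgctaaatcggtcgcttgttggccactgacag
Pop2 (chr3L:12002920-12003120): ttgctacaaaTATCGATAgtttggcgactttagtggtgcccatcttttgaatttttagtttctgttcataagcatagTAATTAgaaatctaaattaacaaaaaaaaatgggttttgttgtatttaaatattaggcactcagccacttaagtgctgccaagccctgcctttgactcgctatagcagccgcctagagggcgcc
Cpsf100 (chr3R:29034231-29034431): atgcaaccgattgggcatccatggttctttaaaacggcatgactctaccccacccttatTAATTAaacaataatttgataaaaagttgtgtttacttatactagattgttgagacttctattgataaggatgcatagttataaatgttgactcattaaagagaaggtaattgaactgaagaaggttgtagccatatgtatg
lgs (chr4:443972-444172): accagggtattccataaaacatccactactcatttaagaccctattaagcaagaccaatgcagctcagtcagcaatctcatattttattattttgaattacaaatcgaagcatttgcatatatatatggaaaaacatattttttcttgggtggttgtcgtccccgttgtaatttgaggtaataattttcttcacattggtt
ctrip (chr3R:4805494-4805694): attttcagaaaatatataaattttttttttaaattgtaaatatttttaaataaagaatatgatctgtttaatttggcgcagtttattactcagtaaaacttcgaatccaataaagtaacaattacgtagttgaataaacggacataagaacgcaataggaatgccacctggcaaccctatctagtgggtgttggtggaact
CG13689 (chr2L:602371-602571): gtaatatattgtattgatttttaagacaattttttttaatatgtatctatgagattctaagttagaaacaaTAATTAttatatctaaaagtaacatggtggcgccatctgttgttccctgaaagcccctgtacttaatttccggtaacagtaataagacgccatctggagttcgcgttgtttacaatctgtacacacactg

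For comparison, the same windows are shown for 3 of the other top peaks of replicate 3, which ranked among the first 7 in all 3 lists.
CG11050 (chr2L:6612613-6612813): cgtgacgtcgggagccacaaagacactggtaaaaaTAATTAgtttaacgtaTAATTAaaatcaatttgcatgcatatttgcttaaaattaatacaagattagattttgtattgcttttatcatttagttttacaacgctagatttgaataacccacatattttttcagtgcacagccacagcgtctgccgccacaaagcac
Tlk (chrX:3742127-3742327): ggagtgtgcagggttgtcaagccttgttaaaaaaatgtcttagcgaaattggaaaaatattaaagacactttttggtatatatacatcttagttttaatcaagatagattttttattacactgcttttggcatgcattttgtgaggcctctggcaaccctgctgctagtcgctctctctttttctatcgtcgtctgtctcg
hll (chr2L:14023979-14024179): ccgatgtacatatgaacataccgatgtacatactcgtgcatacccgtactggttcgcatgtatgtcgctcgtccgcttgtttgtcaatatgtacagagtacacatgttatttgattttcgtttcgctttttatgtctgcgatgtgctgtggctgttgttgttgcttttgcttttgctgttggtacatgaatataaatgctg

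Among the 8 member windows, TAATTA stood in those of Pop2, Cpsf100 and CG13689 and TATCGATA in that of Pop2. Their GC content was between 25.4% at Nab2 and 47.8% at Atg18b. The comparison window at CG11050 held 2 copies of TAATTA, and those at Tlk and hll held none.

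Membership grew with depth in the ranking. In rank bands of 922 peaks, 7, 106, 365 and 580 of replicate 3's peaks were members, which is 0.759%, 11.5%, 39.6% and 62.9% of each band. The same rule applied to the other libraries found 513 peaks of replicate 1 alone (13.9% of its top list) and 624 of replicate 2 alone (16.9%), with 2, 28, 161 and 322 by band in replicate 1 and 1, 63, 206 and 354 in replicate 2. Replicate 3 was thus above both others in the last 3 bands. These shares come from the ranks and overlaps that define the set, so they describe the rule's outcome and carry no test. The 95% Wilson intervals over peaks cover only the number of peaks and neither read counting nor the spread between embryo collections.

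**Figure D1:**
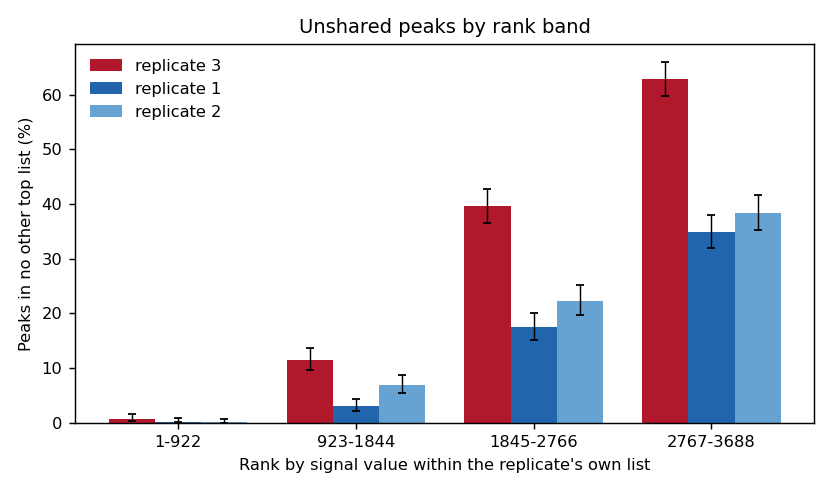
Share of each replicate's top peaks that overlap no top peak of either other replicate (y axis, percent), by band of rank in that replicate's own list (x axis, 922 peaks a band). Bars are shares and error bars 95% Wilson intervals over peaks. In the last band the share is 62.9% in replicate 3, 34.9% in replicate 1 and 38.4% in replicate 2.

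Members ranked between 318 and 3688 in replicate 3, with a median of 2865.5. Their signal values ran between 29.5 and 136.6, with a median of 34.2, on a scale the authors do not state. The deposited −log10 q value was at least 2 for 50 of the members (4.73%) and for 1459 of the other 2630 top peaks of replicate 3 (55.5%). It was at least 2 for all 513 peaks of replicate 1 alone and all 624 of replicate 2 alone. That held for the whole top lists of these replicates and is no trait of the unshared peaks. The lowest value in replicate 1's top list was 2.45, and all 3688 top peaks of replicate 2 had the same value, 3.96. At equal rank the lists therefore differed in the significance the peak caller gave: at rank 3688 the −log10 q value was 0.546 in replicate 3, 2.91 in replicate 1 and 3.96 in replicate 2.

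The limits of the rule are fine-grained. The last ranked peak, a member at the promoter of CG6231, had a signal value of 29.491, and the next, near sens-2, had 29.488. The member nearest to losing its place lay closest to the start of CG7255, at rank 3348 in replicate 3, and its best overlap in replicate 1 was rank 3690. Just outside, the peak in an intron of InR, the insulin receptor gene, ranked 3227 in replicate 3 and was kept out of the set by an overlapping peak at rank 3685 in replicate 2. The peaks in introns of nkd, a Wnt feedback inhibitor, and of larp, an RNA-binding protein gene, were kept out by ranks 3672 and 3670 in replicate 2. Membership at these edges turned on a few ranks.

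Absence from the other top lists was mostly not absence from the other lists. Of the 1058 members, 865 (81.8%) overlapped a peak somewhere in the whole list of replicate 1, at ranks between 3690 and 29996 (median 7351). In the whole list of replicate 2, 841 members (79.5%) had an overlap, at ranks between 3704 and 29988 (median 8115). Both whole lists held 761 members (71.9%), 104 were held by replicate 1's list alone and 80 by replicate 2's alone. For 567 members (53.6%), an overlap lay at rank 7376 or better, 2 lengths of the top list, in at least 1 other replicate. Called absent by the rule, most members thus overlapped a lower-ranked record in the other replicates. Such a record can be background, since the whole lists run down into it. The best overlap lay past rank 15000 for 131 members in replicate 1 and for 154 in replicate 2. How many overlaps of 1 bp or more would arise by position alone was not tested.

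The remaining 113 members (10.7%, 95% Wilson interval 8.96% to 12.7%) overlapped nothing in either whole list. Over all 3688 top peaks of replicate 3, 5.48% were absent from replicate 1's whole list, 6.37% from replicate 2's and 3.06% from both, and all of the last were members by construction. In the reverse direction, 271 of the peaks of replicate 1 alone (52.8%) and 374 of those of replicate 2 alone (59.9%) had no overlap anywhere in replicate 3's list, although 13 (2.53%) and 20 (3.21%) were absent from both other lists. Over all 3688 top peaks of each, 3016 of replicate 1 and 2903 of replicate 2 had an overlap in replicate 3's whole list. Replicate 3's list thus also lacked more of their top peaks as a whole than the reverse. Replicate 2's list lacked 6.24% of the peaks of replicate 1 alone, and replicate 1's lacked 3.53% of those of replicate 2 alone, so these 2 held each other's peaks more often than replicate 3 held theirs.

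**Figure D2:**
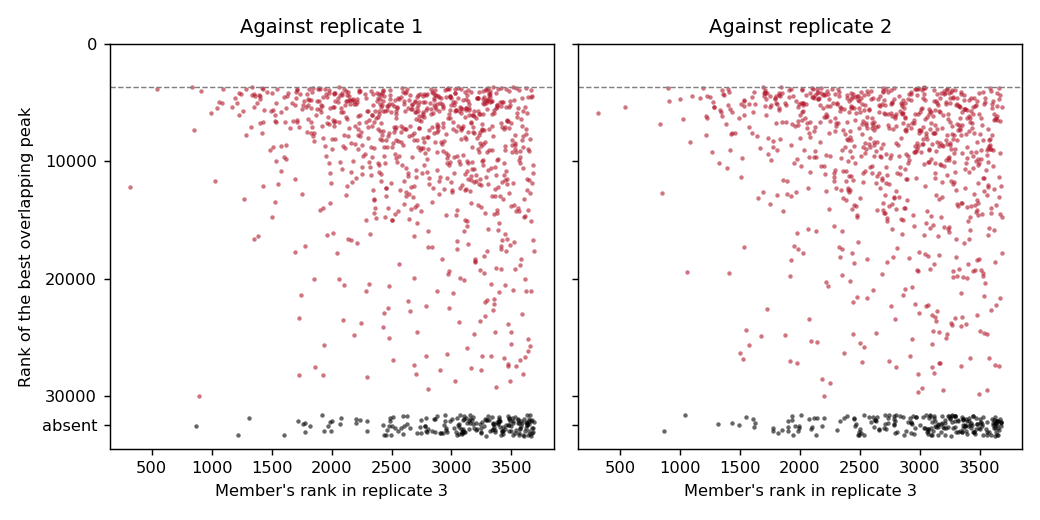
Each point is 1 of the 1058 members, with its rank in replicate 3 on the x axis and the rank of its best overlapping peak in replicate 1 (left) or replicate 2 (right) on the y axis, best ranks at the top. The dashed line is the rank limit of 3688, and black points in the strip at the bottom, spread for visibility, are the 193 and 217 members with no overlap in that whole list.

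The optimal list keeps what ranks high over the replicates, so its overlap with the members is largely fixed by the rule and is given as a description. It overlapped 142 of them (13.4%), against 2513 of the other top peaks of replicate 3 (95.6%) and 72.0% over all its top peaks. The same list overlapped 152 peaks of replicate 1 alone (29.6%) and 191 of replicate 2 alone (30.6%). Of the 113 members absent from both whole lists, 1 was in the optimal list, at the promoter of PolD2, the gene of a DNA polymerase delta subunit. That peak ranked 1934 in replicate 3.

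By the rule, members have a gap to every top peak of the other replicates. The median gap to the closest top peak of replicate 1 or 2 was 6951 bp, and 90 members lay less than 500 bp away. To the 2630 other top peaks of replicate 3 the median gap was 11297 bp. That set is smaller than the top lists of replicates 1 and 2 together, so these medians cannot be compared. The members merge into 1031 separate regions, and each record was 396 bp wide, against 430 bp for the peaks of replicate 1 alone and mostly 456 bp for those of replicate 2 alone. Width went with the library. Its median was also 396 bp in the other top peaks of replicate 3, and 430 bp and 456 bp over the top lists of replicates 1 and 2.

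Promoters held a smaller share of the members than of the peaks they were ranked with. A summit within 500 bp of a protein-coding transcript start was classed as promoter, which gave 368 members (34.8%, 32.0% to 37.7%) and 1379 of the other top peaks of replicate 3 (52.4%, 50.5% to 54.3%). Introns held 432 members (40.8%) and 880 others (33.5%), and intergenic positions 210 members (19.8%) and 333 others (12.7%). Exon positions away from starts were rare in both, with 48 members (4.54%) and 38 others (1.44%). The median distance to the closest start was 1483 bp for members and 431 bp for the others.

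Much of that contrast ran with rank, which chose the members. At ranks 1845 to 3688, 296 of 945 members (31.3%, 28.4% to 34.4%) and 351 of 899 others (39.0%, 35.9% to 42.3%) were at promoters. Ranks differed within that range too, with a median of 2977 in members and 2560 in others. At ranks 1 to 1844, 72 of 113 members (63.7%) were at promoters. There the order within bands of 922 was the other way, with overlapping intervals. In the first band all 7 members (64.6% to 100%) and 67.7% of 915 others (64.6% to 70.6%) were at promoters. In the second band the shares were 61.3% of 106 members (51.8% to 70.0%) and 50.1% of 816 others (46.7% to 53.5%). With top lists of 1844 peaks, the promoter share was 59.0% of 420 members and 59.8% of the others, and with top lists of 7376 peaks it was 16.5% of 3022 members and 45.6% of the others. In the third band the shares were 37.3% of members (32.5% to 42.3%) and 40.2% of others (36.2% to 44.3%), and in the fourth 27.6% (24.1% to 31.4%) and 37.1% (32.2% to 42.4%). The intervals thus separated in the fourth band and overlapped in every band before it.

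Summits in coding sequence were more frequent among members, also within the lower ranks. Summits inside a coding exon numbered 41 among the members (3.88%, 2.87% to 5.21%) and 13 among the others (0.494%, 0.289% to 0.844%). At ranks 1845 to 3688 the shares were 4.23% of members (3.12% to 5.71%) and 0.445% of others (0.173% to 1.14%). In the third rank band they were 1.92% (0.932% to 3.91%) and 0.359% (0.0985% to 1.30%), with overlapping intervals. In the fourth they were 5.69% (4.08% to 7.88%) and 0.585% (0.161% to 2.11%), with separate ones. The peaks of replicate 1 alone and of replicate 2 alone had 1.36% and 2.72%. Coding sequence is richer in GC than the noncoding sequence around it, and the 48 exon members had a median GC content of 50.7% over the 201 bp window. Whether GC content plays a part in the coding share was not tested.

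**Figure D3:**
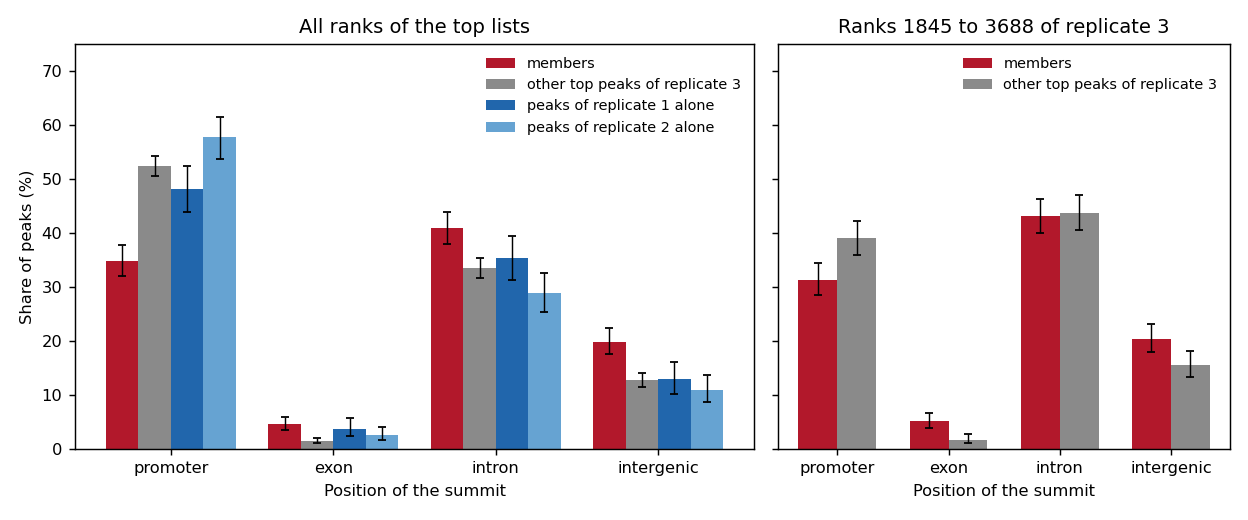
Share of peaks (y axis, percent) by position of the summit (x axis), with 95% Wilson intervals over peaks. At left are the members (n = 1058), the other top peaks of replicate 3 (n = 2630), and the peaks of replicates 1 (n = 513) and 2 (n = 624) alone; at right are members and others at ranks 1845 to 3688 of replicate 3, where promoters hold 31.3% and 39.0%.

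The unshared promoter peaks of the 3 libraries lay upstream of the transcript start to different degrees. Among promoter peaks, the summit was upstream of its closest start in 295 of 368 members (80.2%, 75.8% to 83.9%) and in 1148 of 1379 other top peaks of replicate 3 (83.2%). It was upstream in 144 of 247 peaks of replicate 1 alone (58.3%, 52.1% to 64.3%) and in 182 of 360 of replicate 2 alone (50.6%, 45.4% to 55.7%). Summits inside a 5′ untranslated region made up 5.58% of all members (4.35% to 7.13%) and 8.94% of the other top peaks of replicate 3 (7.90% to 10.1%). Such summits made up 19.7% of the peaks of replicate 1 alone and 26.4% of those of replicate 2 alone. These shares are over all peaks, of which promoters held 34.8%, 52.4%, 48.1% and 57.7% in the same order. Members at promoters were thus upstream about as often as replicate 3's other peaks, and the private peaks of the other two lay more often behind the start.

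**Figure D4:**
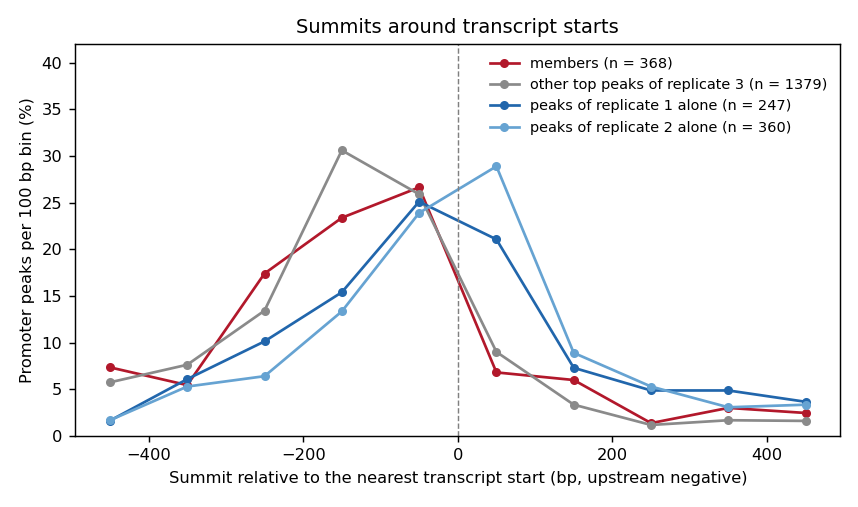
Position of promoter summits relative to the closest transcript start (x axis, bp, upstream negative) as the share of each group's promoter peaks in bins of 100 bp (y axis, percent). The highest bin is the last one before the start in members (26.6%), the one before that in the other top peaks of replicate 3 (30.6%), the last one before the start in replicate 1 alone (25.1%), and the first one after it in replicate 2 alone (28.9%).

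Starts on both strands within 500 bp, the layout of a shared promoter between neighbouring genes, lay at 118 of the 368 promoter members (32.1%, 27.5% to 37.0%) and at 533 of 1379 others (38.7%, 36.1% to 41.2%). All 7 members of the first rank band, each at a promoter, had it, against 275 of the 619 promoter peaks among the others in that band. These 7 members are few, and the 95% interval of their share starts at 64.6%.

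The 20 members of highest signal value were mostly at promoters. Of them, 16 were at promoters, 17 lay upstream of their closest start, 12 had starts on both strands, 18 overlapped the optimal list and 17 were in both other whole lists. Among other top peaks of replicate 3, 67.7% of the first rank band and 50.1% of the second were at promoters. Starts on both strands lay at 30.1% and 18.9% of those bands. The highest of the 20 members was at Liprin-beta, a scaffold protein gene of the synapse-associated liprin family, 7 bp before the start (chr3L:13513049-13513444). This member had rank 318 in replicate 3, rank 12148 in replicate 1 and rank 5850 in replicate 2. The second was at PIG-L, a gene of glycosylphosphatidylinositol anchor synthesis, with ranks 541, 3847 and 5343 in replicates 3, 1 and 2. Hph, the prolyl hydroxylase that marks the hypoxia factor for degradation, followed with ranks 833, 3706 and 6810. CG18661 had ranks 854, 7350 and 12670 in the same order. PIG-L and Hph thus lay just past the limit of replicate 1, and Liprin-beta and CG18661 far past it in at least 1 list.

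Among the following members, Ice1, a subunit of the little elongation complex for small nuclear RNA transcription, ranked 870 in replicate 3 and was in neither other list nor in the pooled one. Nab2, a polyadenosine RNA-binding protein gene, had ranks 996, 5876 and 4718 in replicates 3, 1 and 2. Pop2, a deadenylase of the CCR4-NOT complex, had ranks 1083, 5027 and 8345. Cpsf100, of the cleavage and polyadenylation complex, had ranks 1097, 3835 and 4409, closer to the limit than these 3 in both lists.

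The rest of the 20 were gfzf (ranks 912, 3980 and 4888 in replicates 3, 1 and 2), which encodes a zinc-finger protein with a glutathione transferase domain, and lgs (1167, 5400 and 4640), the Wnt pathway coactivator legless. The autophagy gene Atg18b (1027, 11697 and 6433) and the ubiquitin ligase gene ctrip (1194, 4614 and 3739) carried their members in introns. The members of CG6149 (1226, 4182 and 6282) and of the carboxylesterase gene alpha-Est9 (1248, 4277 and 4527) were intergenic. Of the 17 in both whole lists, that at CG7745 had the widest gap between the other libraries, with rank 898 in replicate 3, rank 29996 in replicate 1 and rank 3734 in replicate 2. KLHL18, a kelch-like gene, had rank 1043 and was absent from replicate 2's whole list, and viaf, the gene of an associate of inhibitor-of-apoptosis proteins, had rank 1221 and was absent from replicate 1's. Lap1 (1059), CG13689 (1214) and und (1224), a methionine aminopeptidase gene, complete the set.

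The 113 members absent from both whole lists had a larger share in coding sequence. Summits inside coding sequence made up 19 of them (16.8%, 11.0% to 24.8%), against 3.88% of all members. Promoters made up 30 (26.5%) and introns 37 (32.7%). Their median GC content was 43.8%, against 39.3% over all members. Transposable elements were annotated at 5 of them (4.42%, 1.90% to 9.94%), against 15 of all members (1.42%, 0.861% to 2.33%). The 5 are among the 15, and these intervals overlap. Among the other top peaks of replicate 3 the count was 12 (0.456%, 0.261% to 0.796%). The 113 also ranked lower in replicate 3, with a median of 3210 against 2865.5 over all members. Their −log10 q values had a median of 0.67.

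On the X chromosome, 3 of 150 members (2.00%, 0.682% to 5.71%) were absent from both whole lists, against 22 of 210 on 2L (10.5%, 7.02% to 15.4%), 18 of 172 on 2R (10.5%, 6.72% to 15.9%), 33 of 248 on 3L (13.3%, 9.63% to 18.1%) and 36 of 273 on 3R (13.2%, 9.68% to 17.7%). The X also held a smaller share of the whole list of replicate 3 (13.4%) than of the whole lists of replicate 1 (17.5%) and replicate 2 (18.5%). Members as a set were on the X in 14.2% of cases, against 16.4% of the other top peaks of replicate 3. The part of the lists' X shares in the absence by arm was not tested.

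**Figure D5:**
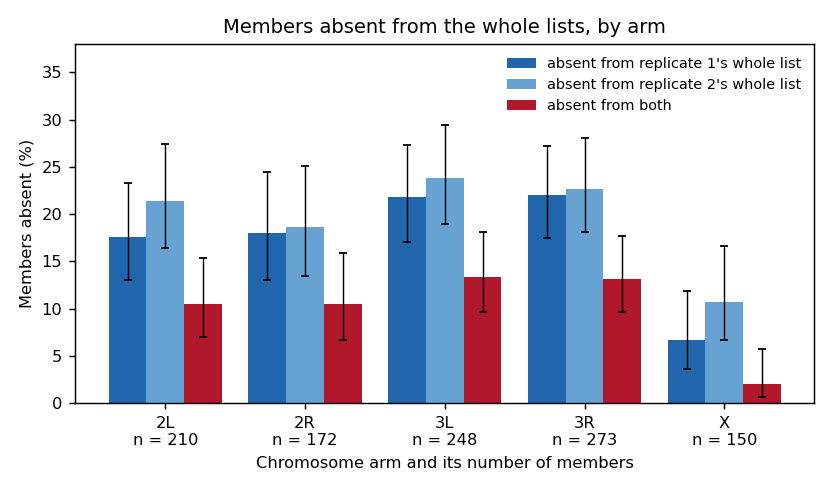
Share of the members on each chromosome arm (x axis, with the number of members) that overlap nothing in the whole list of replicate 1, of replicate 2 or of both (y axis, percent), with 95% Wilson intervals over peaks. The X has the lowest share for each of the 3, and chromosome 4, with 5 members, is not drawn.

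Of the 113, those at rank 1844 or better in replicate 3 numbered 5, and the 4 named here were picked out after their values were seen. The member at the promoter of Ice1 ranked 870 and that at the promoter of CG9044 ranked 1315. Next came d4, a PHD-finger gene, at rank 1607 in an intron, and CG14606 at rank 1775 at its promoter. Of these 4, the peak at CG14606 overlapped a pooled peak, at rank 8251, and the others overlapped none.

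Members had more G and C around the summit than the other top peaks in the lower ranks and not in the upper ones. The median GC content of the 201 bp windows was 39.3% in members and 35.8% in the other top peaks of replicate 3, against 38.8% and 43.3% in the peaks of replicates 1 and 2 alone and 42.3% over all windows of that length in the 6 arms. By rank band it was 32.8%, 35.1%, 38.8% and 40.3% in members and 34.3%, 35.3%, 36.8% and 37.3% in the others. With top lists of 1844 peaks it was 34.8% in members. Of the motifs made of A and T alone, TTTAAA stood in 249 member windows (23.5%) and 880 others (33.5%), against 18.2% of all windows. AATATT stood in 23.0% of members and 29.4% of others, against 16.4% of all windows. Among the 113 members at ranks 1 to 1844 the shares of TTTAAA and AATATT were 38.1% and 36.3%. TATATA, with 17.7% of members and 19.0% of others against 11.7% of all windows, and AAAAAAAA, with 13.2% and 13.3% against 10.6%, had overlapping intervals. All motifs were searched on both strands, and matches may overlap one another.

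TAATTA, the homeodomain core, stood in 157 member windows (14.8%), in 469 of the others (17.8%) and in 12.5% of all windows. At promoters its share was 19.8% in members and 18.9% in others, against 9.39% of windows centred on all protein-coding starts. Away from promoters it was 12.2% in members and 16.7% in others. TTAATTA, which contains it, stood in 10.5% of members and 11.3% of others, against 8.22% of all windows. With the median GC content of promoter members at 36.8% and that of all start windows at 42.3%, the windows compared differ in composition as well.

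Promoter sequences gave a similar picture in members and others. TATCGATA stood in 17 of 368 promoter members (4.62%), in 73 of 1379 promoter others (5.29%) and in 6.45% of all start windows, against 0.564% of all windows. GGTCACAC stood in 4.08% of promoter members and 2.90% of promoter others, against 5.68% of start windows. CAGCNCTG stood in 5.98% and 7.11% of them, against 5.16% of start windows.

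GAGAGAG, the repeat bound by GAGA factor, was less frequent in members than in the other sets of top peaks. It stood in 16 of 1058 member windows (1.51%, 0.933% to 2.44%), in 109 of 2630 others (4.14%), in 33 of 513 windows of replicate 1 alone (6.43%) and in 57 of 624 of replicate 2 alone (9.13%), against 2.45% of all windows. Members ranked lower than the others (median 2865.5 against 1343.5), and the part of rank in this was not tested. The whole top lists of replicates 1 and 2 were not set beside their unshared peaks here. The dinucleotide repeat ACACACAC stood in 5.10% of members and 4.11% of others, and in 8.97% and 10.3% of the peaks of replicates 1 and 2 alone, against 3.64% of all windows. GCAGCAGC, frequent in coding sequence, stood in 2.93% of members and 1.48% of others, against 3.38% of all windows. GTAAACA, a forkhead core, stood in 8.88% of members and 8.59% of others, against 3.83% of all windows, above that of all windows in both sets.

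The members were spread over many genes. By closest transcript start they fell to 901 of 13945 protein-coding genes (6.46%), of which 773 had 1 member, 103 had 2, 21 had 3 and 4 had 4. Of these 901 genes, 281 (31.2%) also had another top peak of replicate 3, against 13.9% of all genes. The 4 genes with 4 members were CG13898, Eip75B, foxo and shn, of 7, 10, 8 and 14 top peaks in all. A closest gene need not be one that the site regulates.

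At Eip75B, the ecdysone-induced nuclear receptor gene, the members ranked 2857, 3091, 3202 and 3532 in replicate 3. Only the third, in an intron, was absent from both other lists, and the first overlapped rank 4595 in replicate 1 and rank 6762 in replicate 2. At foxo, the forkhead factor of insulin signalling, the members ranked 1935, 2858, 3127 and 3421. Those at ranks 2858 and 3421 overlapped each other (chr3R:14049203-14049598 and chr3R:14049402-14049797), so foxo held 3 separate member regions. At shn, the zinc-finger cofactor of Dpp signalling, the members ranked 1924, 1982, 3410 and 3624, and the first, 271 bp before the start, overlapped rank 6989 in replicate 1 and rank 12917 in replicate 2. At CG13898 all 4 ranked between 2990 and 3629.

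Most members stood alone. With gaps of at most 10 kb, 744 of the 1058 had no other member so close, 132 runs held 2, 10 held 3 and 5 held 4. Those of 4 lay at yrt and side-IV (12664 bp on 3R), at hry and SrpRbeta (12983 bp on 3L), at shn, at foxo, and at CG5151 and CG33795 (16733 bp on 3L), each with between 1 and 6 of the other top peaks inside. Runs of 3 with no other top peak inside lay at HDAC4 on the X (5573 bp), at gro, Exo84 and Vps2 on 3R (7778 bp), and at CG6330, Tsp97E and CG5521 on 3R (12285 bp).

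The locus of the tagged factor had no member. No member had CG4328 as its closest gene, and the nearest lay 8962 bp outside the gene, at INPP5E (chr3L:12281796-12282191), with rank 2481 in replicate 3, rank 20641 in replicate 1 and no overlap in replicate 2. Of the other LIM-homeodomain genes, Lim1 had a member in its intron at ranks 3092, 12016 and 6701 in replicates 3, 1 and 2. Lim3, a motor neuron identity gene, had a member inside its body at rank 3591, with rank 22989 in replicate 1 and none in replicate 2. The body of tup, the fly islet gene, held a member at ranks 2550, 14244 and 6881 whose closest start was that of mRpL13, and a further member at rank 3220 lay 25493 bp before its start. Awh, Lmx1a and ap had none, and ap was 430005 bp from the closest. None of the 7 genes was closest to any other top peak of replicate 3.

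The share of genes closest to a member, 6.46% over all genes, is the scale for the gene lists, which were chosen with earlier results of these data known. In 8 of the 25 lists the whole 95% interval lay above it: 10 of 39 genes of Wnt, Hedgehog, Dpp and EGF signalling, 10 of 35 mesoderm and muscle factors, 7 of 24 ecdysone cascade genes, 5 of 17 gut and tubule genes, 5 of 14 tracheal genes, 3 of 10 Hox genes and cofactors, 6 of 38 axon guidance and adhesion genes and the 2 of 7 LIM-homeodomain genes, with lower ends between 7.44% and 16.3%. In the other 17 lists, the neural homeobox, neuroblast and Notch lists among them, the interval held the share of all genes or lay under it. Other top peaks of replicate 3 were closest to 15, 13, 11, 6, 5, 4, 12 and 0 genes of the 8 lists in the same order, against 13.9% of all genes. The shares were not adjusted for how much sequence lies closest to each gene's start. Nor were the intervals widened for the 25 lists read.

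Among signalling genes, the member at Wnt6, a Wnt ligand, ranked 2107, 7767 and 4484 in replicates 3, 1 and 2, 144 bp before the start. That in an intron of Dad, the inhibitor of Dpp signalling, ranked 2118, 12908 and 4611, and that at fz2, a Wnt receptor, ranked 2179, 9986 and 10392. In the Notch pathway 2 of 24 genes had a member: Su(H), its DNA-binding effector, at ranks 2065, 6652 and 15802, and gro, the corepressor, at rank 3085 with no overlap in replicate 1.

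Among mesoderm factors, Doc2, a T-box gene of the heart, had a member at ranks 1752, 12802 and 13678. Mef2, the muscle differentiation factor, had one in an intron at ranks 2387, 10156 and 13312. The integrin gene if had one 106 bp behind its start at ranks 2149, 4766 and 4715, in the optimal list. Of 27 sarcomere genes, Actn (rank 2528) and Msp300 (rank 2532) had a member, whereas 10 had another top peak. In the ecdysone cascade, ftz-f1 ranked 2063 in replicate 3 and missed the limit of replicate 1 by a few ranks (3695), and EcR, the receptor itself, ranked 2964, 9733 and 9166 at its promoter.

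Of 54 neural and patterning homeobox genes, 6 (11.1%, 5.19% to 22.2%) had a member. The 8 member peaks were all away from promoters, as were 690 of the 1058 members. The best ranked were C15 (ranks 1791, 4234 and 4693 in replicates 3, 1 and 2), vvl, a POU factor of trachea and neurons (2152, 5112 and 4094), and ftz (2396, 4297 and 4637). That near en, the segment polarity homeobox gene, ranked 2701, with rank 28148 in replicate 1 and none in replicate 2. Among Hox genes, the member near Abd-B ranked 1900 and 14129 and was absent from replicate 2, and that in hth, the Hox cofactor, ranked 1955, 4226 and 10127. Of 38 axon guidance genes 6 had a member and 12 another top peak, and of 37 synapse and channel genes 3 and 2 did. In the neuroblast list 2 of 27 genes had one, brat, a translational repressor gene, at rank 2393 and the Sox factor gene SoxN at rank 3503, the second absent from both other lists. In the glial list 3 of 17 had one, moody, which keeps the glial barrier tight, pnt, an ETS factor gene, and loco, a G-protein regulator gene, at ranks 2731, 3084 and 3578. Of the 3 LIM cofactor genes, Bx had one at rank 3364.

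Ribosomal protein genes had members at shares whose intervals held the 6.46% of all genes. Of 93 cytoplasmic ribosomal protein genes, 2 had a member (2.15%, 0.592% to 7.51%), RpL15 (ranks 2804, 17308 and 5967) and RpS26 (rank 3040, absent from replicate 1), whereas 52 had another top peak of replicate 3. Mitochondrial ribosomal protein genes had 5 of 73 (6.85%), led by mRpS29 (1462, 4084 and 7563), and 7 with another top peak. Proteasome genes had 2 of 48, cell cycle genes 3 of 32, with E2f2 at the best rank of 1604, and heat shock genes 3 of 24. Of 26 Polycomb and trithorax genes 4 had a member, of which esc, a subunit of the Polycomb methyltransferase complex, had one at rank 2937 that was absent from both other lists.

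Chemoreceptors had 2 of 179 genes with a member (1.12%, 0.307% to 3.98%), under the 6.46% of all genes. For Cpr cuticle proteins (4 of 70), chitin and cuticle assembly genes (1 of 29) and blood and fat body genes (1 of 21) the interval held 6.46%. In the gut list the best ranked member lay near fkh, the forkhead factor of the foregut and salivary gland (ranks 1509, 8745 and 5123), and in the tracheal list near peb, a zinc-finger gene (ranks 1725, 28171 and 22587). That near rib, a tracheal BTB factor, ranked 2594 and was in neither other list.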

How the data were processed

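Peak lists of anti-GFP ChIP-seq in whole embryos were used, for 3 biological replicates of 1 group per the labels, in builds dm6 and dm3. Embryo age was taken from the source name, since another age label holds a value that is no embryo age. Per the deposited text notes, each replicate's relaxed list was made from its own alignments and a control alignment common to all 3, the pooled list from all replicates, and the optimal list by IDR. No aligner, peak caller, version or IDR threshold is given in the sources used here, and depth is unknown because no read totals were used. The signal value of each peak, which the authors deposited on an unstated scale, ranked peaks within a list and was not compared between lists. The −log10 q value deposited by the authors described the lists. The p-value column holds no values.

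Top lists were as long as the dm6 optimal list (3688 records), ties were kept in file order, and overlap meant 1 bp or more. Summits were annotated with BDGP 6.54 gene models (Ensembl release 115, 13945 protein-coding genes on 6 arms) and the RefSeq release 6 sequence, by Python 3.11.15 with pandas 2.3.3, numpy 2.4.6 and matplotlib 3.10.9, all coordinates 1-based. GC content and 26 motifs were read over 201 bp windows. Intervals are 95% Wilson intervals over peaks, and no test was run, because peaks of 1 library are not replicates. The overlap steps and the motif search were tested on simulated data, and the search for the closest start on positions near known starts. The ranking by signal value and the classes of position were not tested in this way.

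The members and the 25 gene lists were chosen with earlier results of these data known, and the rank bands were set after seeing the data. A synonym matched 9 of the list symbols, and 6 had no match. Genes were named by rule: LIM-homeodomain genes, those closest to the 20 members of highest signal value, those with 4 or more members, up to 4 per list by signal value, and up to 8 stretches with the most members. Genes at the rank limits, and 4 of the best-ranked members in no other list, were added; 1 more is not reported here. Alternatives were the ranking column, list length, overlap, build, merged records, promoter width, start set, window size and leaving out a replicate.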

Additional observations from a re-analysis of the deposited data

How the results depend on the processing

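The length of the top lists moved most values. The member count was 420 with lists of 1844 peaks and 3022 with lists of 7376, the promoter share 59.0% and 16.5%, and the share absent from both whole lists 1.19% and 42.6%. A promoter window of 250 bp gave 25.4% and one of 1000 bp 44.0%. Overlap of at least 0.5 of the shorter peak put absence at 15.04%, and counting peaks within 500 bp as overlapping put it at 8.47%. Judged against 1 other replicate, members numbered between 1274 and 1435, their promoter share was between 36.0% and 39.3%, and absence from that whole list was between 15.9% and 16.4%. Ranking by −log10 q broke ties by signal value, and all 3688 top peaks of replicate 2 were tied, so it could change little there. That ranking (937 members) and merged records (1031) kept the count within 1.5 times and both shares within their intervals. So did the dm3 lists (1051) for the count and the absence, and starts of all genes for the promoter share, the only values for which they were run. Of 36 other shares and GC medians, 20 left their interval with lists of 1844 peaks, 19 with lists of 7376, 3 without replicate 1 and none without replicate 2 or under the 0.5 overlap rule, and 24 of 27 did with windows of 50 bp either side, which hold fewer letters. Ranking by column 8 was not run, as it holds no values. No paired analysis was possible because there is 1 group. Depth is unknown, so how many members deeper libraries would share was not tested.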
